A study of Homo sapiens with 6 samples.

Results

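Keratins are the intermediate filament proteins of epithelial cells. Each filament is built from pairs of 1 type I (acidic) and 1 type II (basic) keratin, so the genes of both types are expressed together. Adult hepatocytes carry almost solely KRT8 and KRT18, cells of the bile duct add KRT7 and KRT19, and the skin, its appendages and hair use other members. KRT17 is a type I keratin of basal and appendage epithelium that is known as an inducible keratin of wounded skin and of some carcinomas. In the liver, KRT8 and KRT18 form the mechanical scaffold of the hepatocyte and are known to rise under stress.

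The 10 keratin genes described here are KRT17, KRT8, KRT18, KRT19, KRT7, KRT10, KRT23, KRT80, KRT81 and KRT86, out of 57500 genes in the count tables. They were selected by symbol as simple epithelial, biliary-type and hair-type keratins with earlier results of these same libraries known. Their values for glycine against vehicle are therefore given as a description, without a p-value. Of the 10 members, 5 are type I (KRT17, KRT18, KRT19, KRT10 and KRT23) and 5 are type II (KRT8, KRT7, KRT80, KRT81 and KRT86).

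RNA was sequenced from HepG2 cells, an established human hepatocellular carcinoma line that the labels list as wild type. Cells received vehicle or 10 mM glycine for 24 h, with 3 libraries per group, and the culture medium of both groups already contained glycine. The libraries held between 34960947 and 35861020 counts with vehicle and between 31795489 and 58815986 with glycine, the deepest being glycine replicate 2. All 12 hepatocyte markers examined, among them ALB and HNF4A, were expressed in both groups, whereas TP63, which defines basal epithelium, had 2 counts over all libraries.

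The members differ in sequence in ways that bear on how reads are assigned to them. Among the most conserved parts of a keratin is the helix termination motif at the end of its rod domain, and the 27 bases that code for its core were read for each member from GENCODE 29 transcripts (GRCh38), 5′ to 3′ on the coding strand. Capitals mark bases that differ from KRT17 in the type I genes and from KRT8 in the type II genes.
KRT17: acctaccgccgcctgctggagggagag
KRT18: acctaccgccgcctgctggaAgATgGC
KRT19: acctaccgcAgcctgctCgagggaCag
KRT10: acctaccgcAgcctgctAgaAggagag
KRT23: acGtaccgAcgGctCctggagggagag
KRT8: acctacaggaagctgctggagggcgag
KRT7: acctacCgCaagctgctggagggcgag
KRT80: acctacaggaagctgGtggagggcgag
KRT81: acctacaggCGCctgctggagggcgag
KRT86: acctacaggCGCctgctggagggcgag
Between 3 and 5 of the 27 bases differed from KRT17 in the other type I genes, and between 1 and 3 differed from KRT8 in the other type II genes. KRT81 and KRT86 had the same 27 bases. Over the whole coding sequence these hair keratins were 94.2% identical, and 28.8% of the 100-base windows of KRT81 transcripts also occurred in KRT86. Reads of KRT81 and KRT86 could therefore be split in counting.

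KRT17 was far less alike to any other member than KRT81 and KRT86 were to each other. Its coding sequence of 1296 bases was 76.0% identical to KRT19, 70.6% to KRT10, 69.6% to KRT18 and 65.6% to KRT23. The closest relatives of KRT17 among all keratins compared were KRT14 (86.4%) and KRT16 (81.2%), basal and hyperproliferation keratins of the epidermis, which had 1 and 2 counts over all 6 libraries. Only 0.147% of the 100-base windows of KRT17 transcripts occurred in another gene, the pseudogene KRT17P3. The 8 annotated KRT17 pseudogenes together held 5 counts against 2254 for KRT17 itself.

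KRT17 (ENSG00000128422, chromosome 17, 41619437 to 41624842 in GRCh38, minus strand) moved from a trace level to a moderate one. Its counts were 47, 61 and 53 in the vehicle libraries and 501, 1076 and 516 in the glycine libraries. Scaled to a common library size (CPM, the usual count unit), the level was 1.34, 1.75 and 1.47 with vehicle and 15.7, 18.4 and 12.2 with glycine. All 3 glycine libraries stood well above all 3 vehicle libraries. The level averaged 1.52 ± 0.208 CPM with vehicle and 15.4 ± 3.09 after glycine (SD, n = 3), a log2 change of 3.35 ± 0.169 (s.e. of the edgeR fit). KRT17 ranked 2 of 15492 tested genes by the size of its log2 change. When each library was left out in turn the log2 change ran from 3.19 to 3.48. In bulk RNA a larger number of KRT17-expressing cells and more KRT17 RNA per cell cannot be told apart.

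**Figure D1:**
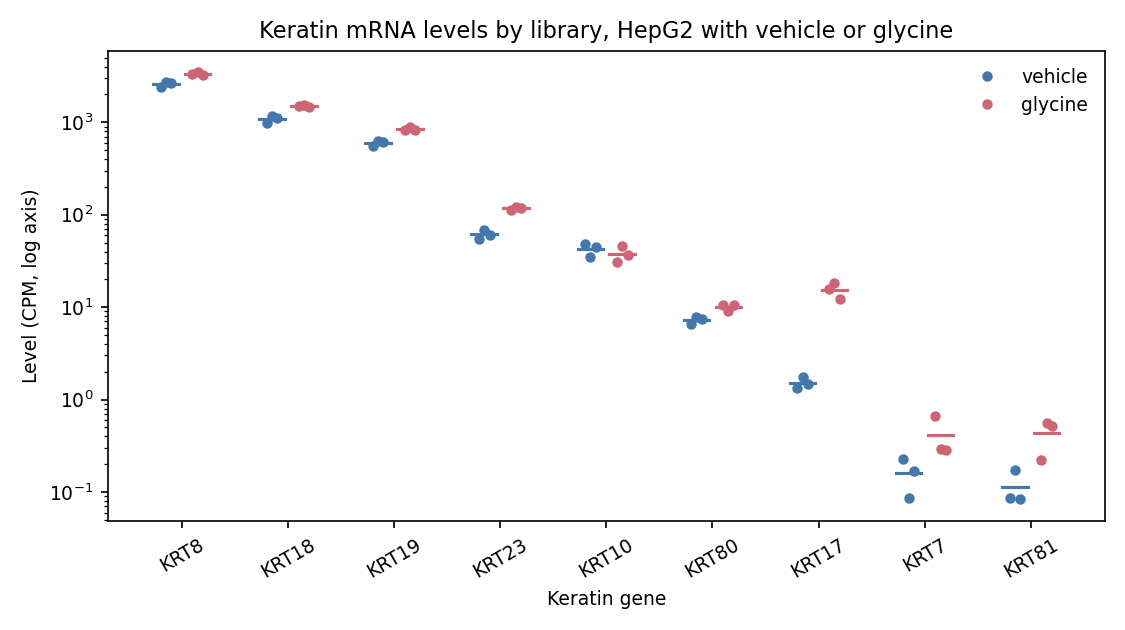
CPM on a log axis for the 9 keratin members with at least 1 count, ordered by their vehicle level and not scaled by gene length. Points are libraries (3 per group) and bars are group means. KRT17 separates most widely, from 1.34 to 1.75 CPM with vehicle to 12.2 to 18.4 CPM with glycine, while the groups overlap for KRT10.

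KRT8 and KRT18, the obligate pair of the hepatocyte filament, were the most abundant members in every library, also per exon length. KRT8 (ENSG00000170421, chromosome 12, 52897187 to 52949954, minus strand), the type II partner, was at 2427, 2698 and 2640 CPM with vehicle and 3292, 3493 and 3242 CPM with glycine. KRT8 averaged 2589 ± 143 CPM with vehicle and 3343 ± 133 after glycine (SD, n = 3), a log2 change of 0.37 ± 0.0819. KRT18 (ENSG00000111057, chromosome 12, 52948871 to 52952901, plus strand), the type I partner, was at 983, 1185 and 1102 CPM with vehicle and 1494, 1543 and 1454 CPM with glycine. Neither gene of the pair overlapped between groups. KRT18 averaged 1090 ± 101 CPM with vehicle and 1497 ± 44.2 after glycine, a log2 change of 0.46 ± 0.0824. The exons of KRT8 and KRT18 share 525 bases on opposite strands, which is 7.63% of the exon length of KRT8 and 16.3% of that of KRT18, and the strand setting of the counting is not given in the sources used here.

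KRT19 (ENSG00000171345, chromosome 17, 41523617 to 41528308, minus strand), the smallest keratin and a marker of bile duct and progenitor cells, was the third most abundant member. Its level was 550, 634 and 616 CPM with vehicle and 827, 901 and 834 CPM with glycine. The groups did not overlap, and the level averaged 600.3 ± 44.4 CPM with vehicle and 854 ± 40.4 after glycine (SD, n = 3), a log2 change of 0.51 ± 0.0766. The other duct keratin, the type II gene KRT7 (ENSG00000135480, chromosome 12, 52232520 to 52252186, plus strand), was near the limit of detection. It had 8, 3 and 6 counts with vehicle and 21, 17 and 12 with glycine, and in CPM its highest vehicle library (0.228) was close to its lowest glycine library (0.284). The fitted log2 change of KRT7 was 1.24 ± 0.474, with pooled counts in a ratio of 2.37 per unit of library size (exact 95% interval 1.34 to 4.38, counting error only), and it did not pass the threshold. Exons on the opposite strand, those of KRT7-AS (3 counts over all libraries) and of the pseudogene KRT87P (0 counts), cover 7.67% of its exon length.

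KRT23 (ENSG00000108244, chromosome 17, 40922696 to 40937634, minus strand), a type I keratin of gastrointestinal epithelia and tumours, had the next largest change after KRT17 among the called members. It was at 55.0, 68.3 and 60.4 CPM with vehicle and 114, 119.9 and 119 CPM with glycine. The lowest glycine library stood far above the highest vehicle library. The level averaged 61.3 ± 6.68 CPM with vehicle and 117 ± 3.37 after glycine (SD, n = 3), a log2 change of 0.94 ± 0.077. The opposite-strand gene AC004231.1, with 33 counts over all libraries, covers 6.41% of its exon length. KRT80 (ENSG00000167767, chromosome 12, 52168996 to 52192000, minus strand), a type II keratin found in many epithelia, was at 6.62, 7.83 and 7.37 CPM with vehicle and 10.4, 9.06 and 10.5 CPM with glycine. KRT80 averaged 7.27 ± 0.608 CPM with vehicle and 9.99 ± 0.813 after glycine, a log2 change of 0.45 ± 0.102. Its call was lost without vehicle replicate 1 (log2 change 0.38) and without glycine replicate 3 (0.40).

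KRT10 (ENSG00000186395, chromosome 17, 40818117 to 40822595, minus strand), the type I keratin of differentiated epidermis, was the 1 tested member that was not higher with glycine. Its level was 48.6, 35.2 and 45.3 CPM with vehicle and 30.5, 46.1 and 36.4 CPM with glycine. The groups overlapped, with a log2 change of -0.19 ± 0.136. The coefficient of variation of KRT10 was 16.2% with vehicle and 20.9% with glycine, against 5.51% and 3.97% for KRT8. The antisense gene KRT10-AS1, which overlaps 2.61% of the exon length of KRT10, had a log2 change of -0.0049.

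The hair keratins were at or near 0. KRT81 (ENSG00000205426, chromosome 12, 52285913 to 52291534, minus strand) had 3, 6 and 3 counts with vehicle and 7, 33 and 22 with glycine, too few for the expression filter. In CPM the groups were just apart, at up to 0.172 with vehicle and from 0.219 with glycine. The pooled counts of KRT81 gave a ratio of 4.16 per unit of library size (exact 95% interval 2.22 to 8.48, counting error only). KRT86 (ENSG00000170442, chromosome 12, 52249300 to 52309163, plus strand) had 0 counts in all 6 libraries, as did AC021066.1 and AC121757.1, whose exons on the opposite strand cover 3.34% of its exon length. A count of 0 allows up to 3 counts per library, or between 0.051 and 0.0944 CPM, so a difference in KRT86 was not detectable at this depth.

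Of the 10 members, 8 passed the expression filter, 6 of these were called higher and 0 lower (edgeR quasi-likelihood test, adjusted p under 0.05), and KRT7 and KRT10 were not called. Of all 15492 tested genes, 6.71% were called higher and 6.54% lower. In 7 of the 8 tested members every glycine library lay above every vehicle library, which held for 17.2% of all tested genes. The median log2 change of the 8 tested members was 0.48, and that of all tested genes was 0.0035. KRT7 passed the filter, about 0.280 CPM in 3 libraries, through its glycine libraries alone, so the filter favoured a difference in it. Without KRT7, 6 of 7 tested members did not overlap and the median was 0.46. Since earlier results of this contrast were known when the members were chosen, nothing is read from these counts. The 6 genes called higher included 4 of type I (KRT17, KRT18, KRT19 and KRT23) and 2 of type II (KRT8 and KRT80).

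**Figure D2:**
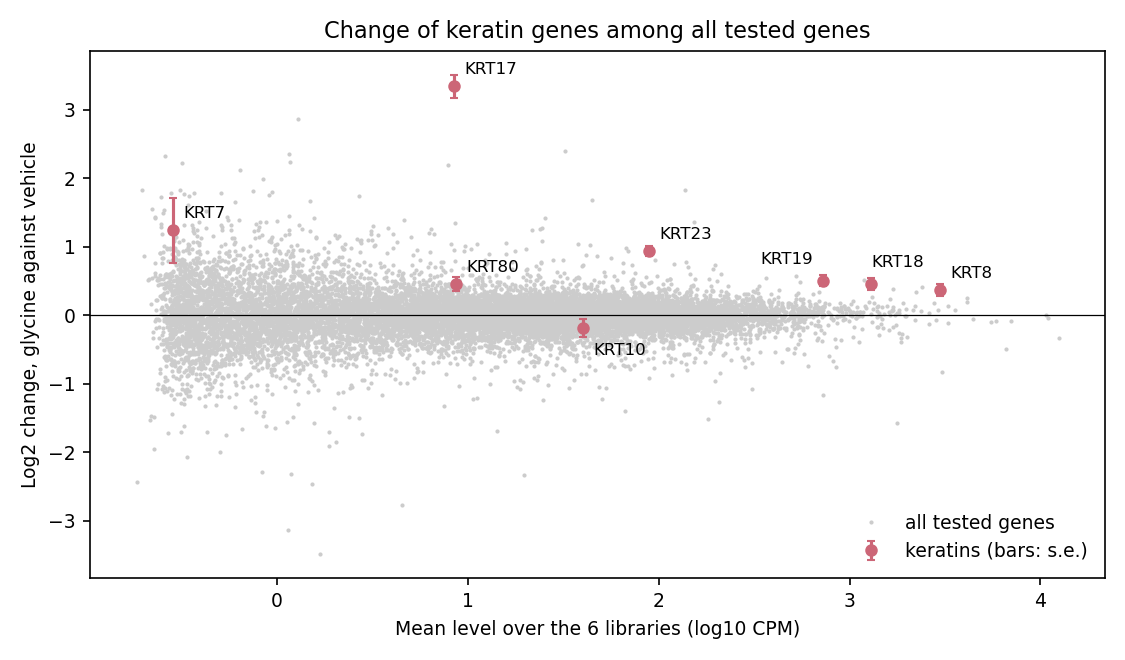
Log2 change for glycine against vehicle plotted against the mean level over the 6 libraries (log10 CPM) for the 15492 tested genes (grey) and the 8 tested keratin members (red, with s.e. bars). KRT17 lies at 3.35 near the top of the plot, the abundant KRT8, KRT18 and KRT19 lie between 0.37 and 0.51, and KRT10 lies at -0.19.

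Levels can be ordered between genes only per length. In CPM per kb of listed exon length, the vehicle libraries held 376 ± 20.7 of KRT8, 339 ± 31.4 of KRT18 and 257 ± 19.0 of KRT19 (SD, n = 3). KRT23 (21.1 ± 2.30) and KRT10 (20.1 ± 3.25) followed, then KRT80 (1.67 ± 0.140) and KRT17 (0.5998 ± 0.0819). KRT8 and KRT18 overlapped across libraries, as did KRT23 and KRT10, and KRT81 and KRT7 at the bottom. With glycine the order changed in that KRT17, at 6.08 ± 1.22, passed KRT80, at 2.30 ± 0.187, with no overlap between them. KRT23, at 40.5 ± 1.16, then stood clear of KRT10, at 17.5 ± 3.67, while KRT8 (486 ± 19.3) and KRT18 (465 ± 13.7) again overlapped. The listed exon length unites all annotated transcripts of a gene, 6881 bases for KRT8 against a coding length of 1533, which lowers the value per kb of a gene that uses only some of its exons.

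Summed over the 10 members, keratin RNA was 4073, 4631 and 4473 CPM with vehicle and 5785, 6131 and 5709 CPM with glycine. The groups did not overlap, and the mean sum was 1.34-fold higher with glycine. This was 0.437% of all counts with vehicle and 0.590% with glycine. KRT17 stayed a small part of the whole in both groups. Its share of type I keratin CPM per kb was 0.0907%, 0.101% and 0.0896% with vehicle and 0.705%, 0.775% and 0.553% with glycine.

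The sums of both types were higher with glycine. Type I keratins summed to 637 CPM per kb with vehicle and 895 with glycine, a 1.40-fold difference, and type II keratins to 378 and 488, a 1.29-fold difference. The ratio of type II to type I was 0.594 ± 0.0143 with vehicle and 0.546 ± 0.00217 with glycine (SD, n = 3). The ratio of KRT8 to KRT18 per kb was 1.15, 1.07 and 1.12 with vehicle and 1.03, 1.06 and 1.04 with glycine. In both ratios the glycine libraries lay below the vehicle libraries without overlap. For KRT8 to KRT18 they were only just apart, at 1.065 in vehicle replicate 2 and 1.059 in glycine replicate 2. The ratio of KRT19 to KRT18 was 0.760 ± 0.0190 with vehicle and 0.786 ± 0.0210 with glycine, and these groups overlapped.

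**Figure D3:**
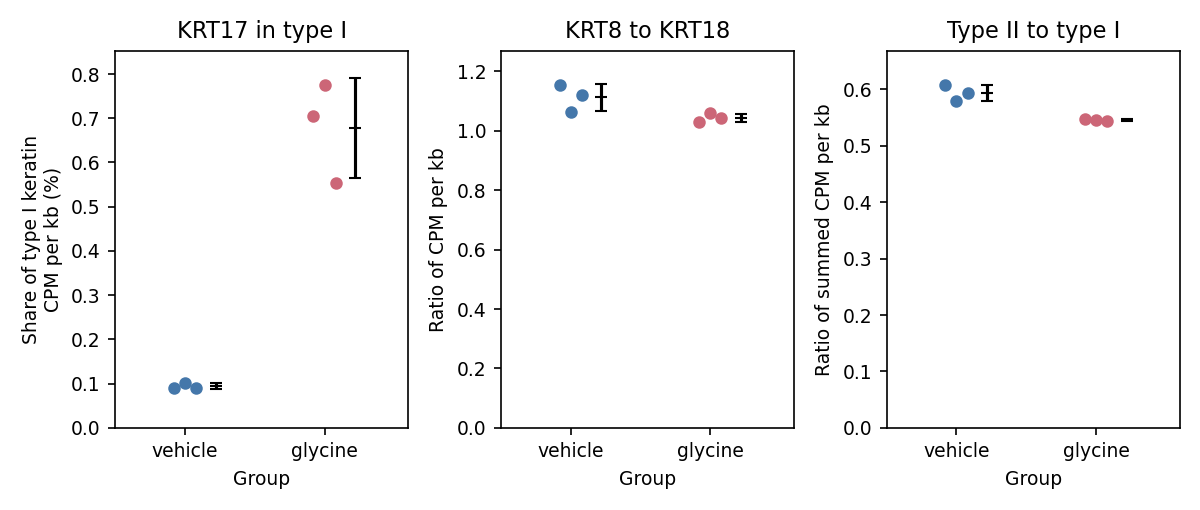
Per-library ratios between keratins on axes that start at 0: the share of KRT17 in type I keratin CPM per kb (%), the ratio of KRT8 to KRT18 and the ratio of type II to type I. Points are libraries, 3 per group, and black marks are the mean and SD. The KRT17 share goes from 0.0939% to 0.678%, while the other ratios shift from 1.11 to 1.04 and from 0.594 to 0.546.

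The rest of the keratin family was almost silent. Among 45 other protein-coding keratin genes, 25 had 0 counts in all libraries, none reached a group mean of 1 CPM, and 2 passed the filter. KRT15, a basal type I keratin that lies beside KRT19, was not called (log2 change 0.51, edgeR adjusted p = 0.277), and neither was the hair keratin KRT37 (log2 change 0.79, edgeR adjusted p = 0.248). The usual type II partners of KRT17 in skin, KRT5, KRT6A and KRT6B, had 1, 2 and 1 counts over all libraries. By group mean, KRT8 and KRT80 were the only type II genes of the family above 1 CPM in these libraries. Of 149 keratin pseudogenes, 6 were tested. The pseudogenes above 1 CPM, KRT8P3 (5.98 ± 0.432 CPM with vehicle and 7.04 ± 0.256 with glycine, edgeR adjusted p = 0.146) and KRT8P12 (3.05 ± 0.408 and 4.03 ± 0.207 CPM, edgeR adjusted p = 0.07), were not called, and neither was any other. The counts of all KRT8 pseudogenes came to 0.457% of those of KRT8.

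The members lie in 2 keratin clusters, 6 of them on chromosome 12 and 4 on chromosome 17. Of 5 tested genes of other families whose start lies within 100 kb of a member's start, 1 was called. KRTAP3-1, which encodes a hair keratin-associated protein and starts 81.7 kb from KRT23, was at 2.11, 2.75 and 2.87 CPM with vehicle and 5.89, 7.30 and 6.97 CPM with glycine. That was a difference of 1.39 ± 0.140 on the log2 scale (edgeR adjusted p = 2.62e-05). KRTAP3-1 has close paralogs in the same cluster, so its reads could have been split in counting. The translation factor genes EIF1, 64.0 kb from KRT17 (log2 change -0.04, edgeR adjusted p = 0.732), and EIF4B, 56.2 kb from KRT8 (log2 change -0.08, edgeR adjusted p = 0.5003), were not called. TNS2 (log2 change -0.14) and KRT10-AS1 (log2 change -0.0049) were also not called.

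The genes whose log2 CPM followed KRT17 most closely over the 6 libraries, among 9106 candidates averaging at least 10 CPM, were ACTA1, TAGLN, TOP1, VGF and NEK2, with Pearson r between 0.9980 and 0.9994. ACTA1 and TAGLN encode a muscle actin and an actin-binding protein, TOP1 a DNA topoisomerase, VGF a neuropeptide precursor and NEK2 a mitotic kinase. The size of their log2 changes spread widely, from 0.15 for TOP1 and 0.30 for NEK2 to 2.40 for VGF. The points share their libraries and fall into the 2 groups, so any gene that separates the groups scores high. Of the keratins, r with KRT17 was 0.986 for KRT23, 0.978 for KRT19 and KRT8, 0.965 for KRT18, 0.905 for KRT80, 0.868 for KRT81, 0.736 for KRT7 and -0.411 for KRT10.

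The proteins that work with keratins were followed as lists compiled from general knowledge. Of 15 other intermediate filament genes, 7 were tested, 1 was called higher and 0 lower. Their median was 0.07 on the log2 scale. NES, which encodes nestin, was at 143, 175 and 132 CPM with vehicle and 227, 214 and 206 CPM with glycine (log2 change 0.53 ± 0.0905, edgeR adjusted p = 0.00201). The lamin genes LMNA (log2 change 0.04) and LMNB1 (log2 change 0.18), whose products line the nucleus, were not called. VIM, which encodes vimentin, the filament protein of mesenchymal cells, had 25 counts over all libraries and was not tested.

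Of 23 genes for desmosomes, hemidesmosomes and other keratin anchors, 18 were tested, 2 were called higher and 0 lower. The median log2 change of those tested was 0.04. PKP2, a desmosomal plakophilin, averaged 62.2 ± 2.77 CPM with vehicle and 74.4 ± 0.948 after glycine (SD, n = 3, log2 change 0.26, edgeR adjusted p = 0.0149). This call was lost without glycine replicate 1 (edgeR adjusted p = 0.0803) or 3 (0.0663). ITGB4, the hemidesmosome integrin, averaged 26.7 ± 0.564 CPM with vehicle and 31.8 ± 1.66 after glycine (log2 change 0.25, edgeR adjusted p = 0.0284), and that call was lost without vehicle replicate 1 (0.106) or 2 (0.0512), without glycine replicate 1 (0.162) or 2 (0.073), and with a replicate block (0.0554). The keratin linkers DSP, with a log2 change of 0.10, and PLEC, with -0.10, were not called.

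Of 20 chaperones, modifying enzymes and binding proteins of keratins, all 20 were tested, 2 were called higher and 0 lower. The tested genes had a median of 0.0050 on the log2 scale. TGM2, a transglutaminase that crosslinks keratins, was at 55.7, 64.4 and 59.7 CPM with vehicle and 88.3, 85.1 and 86.5 CPM with glycine. That was a difference of 0.53 ± 0.0671 on the log2 scale (edgeR adjusted p = 0.000175). SFN, the 14-3-3 sigma protein that binds KRT17 and KRT18, averaged 64.1 ± 4.41 CPM with vehicle and 85.7 ± 9.16 after glycine (log2 change 0.42 ± 0.0816, edgeR adjusted p = 0.00465). The small heat shock gene HSPB1 (log2 change 0.04) and the keratin regulators FAM83H (log2 change 0.15) and CSNK1A1 (log2 change -0.05) were not called.

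Of 35 transcription factors described at keratin genes, 28 were tested, 3 were called higher and 3 lower. The tested factors had a median of 0.02 on the log2 scale. FOSL1, an AP-1 subunit, averaged 19.4 ± 0.306 CPM with vehicle and 28.6 ± 0.184 after glycine (SD, n = 3, log2 change 0.56 ± 0.066, edgeR adjusted p = 0.000106). ETS1 averaged 0.880 ± 0.206 CPM with vehicle and 2.09 ± 0.144 after glycine (log2 change 1.24 ± 0.197, edgeR adjusted p = 0.00114), and its relative ETS2 was also higher (log2 change 0.32, edgeR adjusted p = 0.0153), a call lost without glycine replicate 3 (0.0876). NFE2L2, which encodes the oxidative stress factor NRF2, averaged 227 ± 7.34 CPM with vehicle and 176 ± 11.9 after glycine (log2 change -0.37, edgeR adjusted p = 0.00271). SOX9, a duct and progenitor factor, was lower (log2 change -0.26, edgeR adjusted p = 0.0186), without its call in some of the fits that left out a library, as given with the duct markers. NFKB1, an NF-κB subunit named after its values were seen, was lower (log2 change -0.20, edgeR adjusted p = 0.0417) but was not called when any single library was left out (edgeR adjusted p between 0.0529 and 0.116), under total count scaling (0.0558), with no filter (0.109) or with a replicate block (0.0934). The AP-1 genes JUN (log2 change 0.14) and FOS (log2 change 0.21), and the factors SP1, KLF4 and STAT3, were not called.

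**Figure D4:**
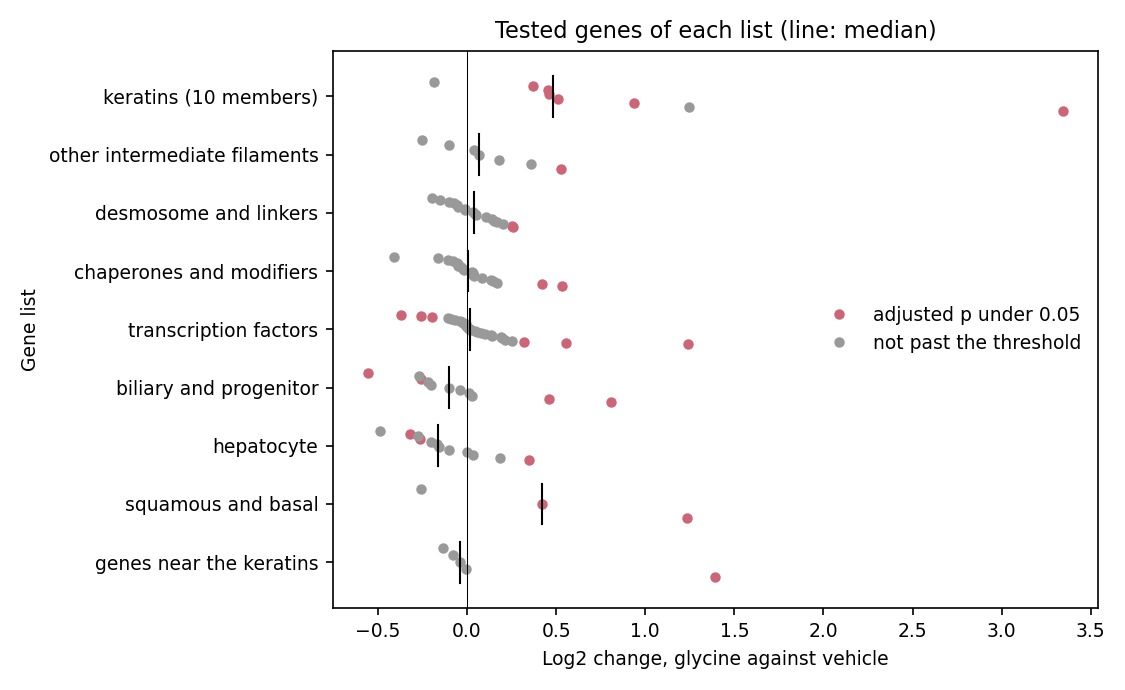
Log2 change for glycine against vehicle of every tested gene (points) in the keratins and in 8 gene lists, with the median of each list as a vertical line. Red points passed an adjusted p of 0.05 (edgeR). The median is 0.48 for the keratins. For the 3 tested squamous and basal markers it is 0.42, the value of SFN, and those of the other 7 lists lie between -0.16 and 0.07.

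Markers of the cell types that use these keratins gave no single direction. Of 16 biliary and progenitor markers, 11 were tested, 2 were called higher and 2 lower. The median log2 change of those tested was -0.10. SOX4, a progenitor transcription factor, averaged 69.1 ± 4.79 CPM with vehicle and 121 ± 11.97 after glycine (SD, n = 3, log2 change 0.81 ± 0.0799, edgeR adjusted p = 2.27e-05), and the surface glycoprotein gene CD24 was also higher (log2 change 0.46, edgeR adjusted p = 0.000857). SOX9, the duct factor, averaged 270 ± 11.2 CPM with vehicle and 225 ± 10.9 after glycine, and this call was lost without vehicle replicate 1 (edgeR adjusted p = 0.0602) and without glycine replicate 2 (0.0855) or 3 (0.0503). TSPAN8, a tetraspanin, was lower (log2 change -0.56, edgeR adjusted p = 0.022), and its call was lost without vehicle replicate 1 (0.0544) or 3 (0.0622) and without glycine replicate 2 (0.0604) or 3 (0.0865). EPCAM, an epithelial progenitor marker, had a log2 change of 0.01 and was not called.

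Of 12 hepatocyte markers, 12 were tested, 1 was called higher and 2 lower. The median log2 change of those tested was -0.16. Their summed level was 33878 to 37289 CPM with vehicle and 30373 to 33700 CPM with glycine, and its part in the keratin values was not tested. FGA, a fibrinogen chain, was higher (log2 change 0.35, edgeR adjusted p = 0.00541). TTR, transthyretin (log2 change -0.32, edgeR adjusted p = 0.00921), and the apolipoprotein gene APOA1 (log2 change -0.26, edgeR adjusted p = 0.0483) were lower. Dropping any single library other than vehicle replicate 2 ended the APOA1 call (edgeR adjusted p between 0.0829 and 0.168), as did upper quartile scaling (0.0513), total count scaling (0.0543), a filter of 1 CPM (0.05004) and a replicate block (0.0804). ALB, albumin, had the largest difference in CPM within the list but was not called (log2 change -0.49, edgeR adjusted p = 0.0764). Its level was 9038, 5366 and 8660 CPM with vehicle and 4682, 5344 and 6405 CPM with glycine, so its groups overlapped. The lower sum of the list thus rested mostly on ALB.

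Squamous and basal epithelial markers, which accompany KRT17 in skin, were mostly absent. Of 12 such genes, 6 had 0 counts, 3 were tested, 2 were called higher and 0 lower. Over the 3 tested genes the median was 0.42 on the log2 scale, which is the value of SFN. S100A2, a calcium-binding protein of basal keratinocytes, was at 1.74, 1.69 and 2.14 CPM with vehicle and 3.92, 4.72 and 4.41 CPM with glycine (log2 change 1.23 ± 0.146, edgeR adjusted p = 0.000109). SFN, given above, was the other gene called higher. The remaining tested gene, TRIM29, was not called (log2 change -0.26, edgeR adjusted p = 0.547). The summed level of the list was 62.6 to 72.0 CPM with vehicle and 84.2 to 101.7 CPM with glycine, of which SFN made up most. Without SFN the other 11 genes summed to 2.57 to 3.14 CPM with vehicle and 4.67 to 5.50 CPM with glycine. S100A2 made up most of this sum, so its rise rested on S100A2 and does not describe the other genes.

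Of 14 fibroblast, endothelial and blood cell markers, 6 were tested, 2 were called higher (COL1A1, with a log2 change of 1.03, and CD68, with 0.63) and 2 lower (PDGFRB, with -0.66, and VWF, with -1.18). The edgeR adjusted p was 0.000585 for COL1A1, 0.0226 for CD68, 0.000137 for PDGFRB and 0.0239 for VWF. VWF was near the expression filter, with 96 counts over all libraries. It averaged 0.584 ± 0.138 CPM with vehicle and 0.258 ± 0.0234 after glycine (SD, n = 3). Its vehicle libraries (0.628, 0.430 and 0.695 CPM) carried it past the filter of about 0.280 CPM in 3 libraries. Its glycine libraries were at 0.251, 0.239 and 0.284 CPM, so the filter favoured a difference in it. Over the 6 tested genes the median was -0.0078 on the log2 scale. The CD68 call was lost without any single library except vehicle replicate 3 (edgeR adjusted p between 0.0573 and 0.0845) and with DESeq2 (0.0783), and the VWF call without any except vehicle replicate 2 (between 0.0558 and 0.102). The summed level of the list was 34.4 to 38.1 CPM with vehicle and 28.2 to 29.3 CPM with glycine, with every glycine library below every vehicle library. PDGFRB made up most of this sum, at 26.9 ± 2.15 CPM with vehicle (SD, n = 3). The lower sum thus rested on PDGFRB and does not describe the list as a whole, in which COL1A1 and CD68 were higher. The part of this list in the keratin values was not tested.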

How the data were processed

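The deposited files are tables of raw read counts by gene, 1 for each of the 6 libraries and 57500 genes long. According to the submitters' processing notes, the authors used Trimmomatic 0.36, STAR 2.5.2b, featureCounts of Subread 1.5.2 and the GRCh38 build. The strand setting, the treatment of reads with several matches and the annotation release are not given in the sources used here. Groups and replicate numbers came from the sample labels. Of the 57500 genes, 56898 were matched by identifier to GENCODE 29, which gave gene types and transcript sequences. Names came from a separate gene list, or from GENCODE 29 where that list had none. Coordinates and exon lengths came with the deposited counts.

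Counts were tested with the edgeR 4.0.16 quasi-likelihood test in R 4.3.3 (two-sided, group alone as covariate, expression filter at 10 counts and a total of 15, trimmed mean of M values scaling). Benjamini-Hochberg adjustment ran over 15492 genes, with a threshold of 0.05. CPM used the scaled library sizes, except the limits for 3 counts, which used the totals. A single count was worth 0.017 to 0.0315 CPM, and such limits cover counting error only, since reads that carry no molecular identifier may be copies of the same molecule. For a log2 change, the standard error was its size over the square root of F.

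The members and lists were chosen with earlier results of these data known. Named genes are all members, other keratin genes at 1 CPM or more, up to 5 called genes with the smallest p-value in each list, called genes near a member, genes whose exons overlap a member and the 5 genes most like KRT17 by Pearson r of log2 CPM (prior count 2). Genes named as not called were chosen after their values were seen. The scripts were tested on simulated counts. Replicates of a group differed by a chi-square of 6.97 to 26.8 per degree of freedom, so none was a duplicate. Alternatives were other scaling factors and filters, DESeq2 1.42.0, limma 3.58.1 with voom, a replicate block, near-identical copies summed, and leaving out each library in turn.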

Additional observations from a re-analysis of the deposited data

How the results depend on the processing

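KRT17, KRT8, KRT18, KRT19 and KRT23 were called higher under all 15 alternatives. The number of members called higher ran from 5 to 7 and none was called lower. KRT81 was added with no filter and without vehicle replicate 2 or 3 or glycine replicate 1. With a library left out, KRT81 passed the filter through glycine libraries alone, so the filter favoured a difference in it. KRT7 was fitted under 13 of the 15 alternatives, since it did not pass every filter, and no tested member changed direction. Over all genes, leaving out each library in turn gave 587 to 926 genes called higher and 655 to 1010 lower. For desmosome and linker genes, those called higher were 1 with a replicate block and 0 to 2 with a library left out, and those called lower 1 with DESeq2 and 0 to 1 with a library left out. Biliary and progenitor markers called lower ran from 0 to 4 and transcription factors called lower from 1 to 2 with a library left out. Hepatocyte markers called lower were 1 under upper quartile scaling, total count scaling or a filter of 1 CPM, 4 with no filter, and 1 to 4 with a library left out. For fibroblast, endothelial and blood cell markers, those called higher were 1 with DESeq2 and 1 to 2 with a library left out. Those called lower were 1 with DESeq2 or a filter of 1 CPM, and 1 to 2 with a library left out. The causes were not tested. Where edgeR called 0 genes lower, an unadjusted p under 0.05 was reached by 1 desmosome or linker gene, 2 chaperones or modifiers and 0 of the members, other filament genes, squamous markers, other keratins and neighbouring genes, and limma called 0 lower in each of these.

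The paper counts experiments on separate days as biological replicates, but how the replicate numbers match days is not given. Libraries of the same number did not deviate together from their group means (r = -0.0577, -0.0268 and -0.0026). For libraries of unlike number r ran from -0.198 to 0.214. With 3 libraries per group these values cannot decide whether vehicle and glycine libraries were paired by day. The replicate block gave 866 higher and 918 lower calls over all genes, and the 6 called members stayed called. Depth limits the values of KRT7, KRT81 and KRT86, and near-identical sequence those of KRT81 and KRT86.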
